A study of Mus musculus with 4 samples.

Results

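Of the 39412 genomic regions bound by Insm1, Neurod1 or Foxa2 in a mouse pancreatic beta cell line, 1576 held a Neurod1 site and a Foxa2 site but no Insm1 site, which is 4.0% of the regions. They were chosen by site presence alone: all sites of the 3 lists that overlapped by at least 1 bp were merged, and regions with sites of Neurod1 and Foxa2 and none of Insm1 were taken. Every one of the 1576 held exactly 1 Neurod1 site and 1 Foxa2 site. Binding was measured by chromatin immunoprecipitation followed by sequencing (ChIP-seq), in which DNA bound by a protein is pulled down with an antibody and sequenced. The line was established from islets of RIP1-Tag2 mice aged 6 weeks, whose mixed strain background included CBA/J, C57BL/6 and 129/ola. The RIP1-Tag2 transgene places the SV40 large T oncogene under an insulin promoter, so the line is a tumour-derived model, and all samples carried it. Cells were at passages 10 to 15 and were grown in 25 mmol/l glucose. The 4 samples were 1 pull-down each for Insm1, Neurod1, Foxa2 and control IgG, and the IgG sample enters no comparison for want of a list analysed here. The design text counts 6 samples, with repeats of Insm1 and Foxa2. The sources used here do not say how such repeats were combined, so no spread between replicates can be had and no test between conditions was made.

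Neurod1, of the basic helix-loop-helix family, pairs with an E protein to bind E-boxes and acts in the formation of endocrine cells and in insulin gene transcription. Foxa2 is a forkhead factor that can bind its motif in closed chromatin and acts in pancreas formation and in beta cell secretion. Insm1, made by endocrine cells and by developing neurons, binds DNA through zinc fingers and recruits histone-modifying corepressors through its SNAG domain. The series title speaks of Insm1 cooperating with both other factors, and the regions described here are those where the partners of Insm1 were listed together without it.

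The regions made up a small part of each list. They held 10.8% of the 14607 Neurod1 sites (95% Wilson interval 10.3 to 11.3%) and 5.55% of the 28379 Foxa2 sites (5.29 to 5.83%). Among the 8241 regions with sites of both factors, 19.1% lacked Insm1 (18.3 to 20.0%) and the other 6665 held it. Each of the 6665 held exactly 1 site of each factor, so the comparison of both classes is between single sites. All intervals here are 95% Wilson intervals and cover counting error only, with regions treated as independent, which neighbouring regions may not be. Read depth is unknown, since the lists carry no read counts.

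Neurod1 sites in these regions had low scores for their list. The deposited score is a whole number of undefined scale, compared only within a list, and a percentile below is the share of a list that scores at or below the site. The Neurod1 score ranged from 46, the lowest value in that list, to 1420, with a median of 60 and quartiles of 52 and 78. The whole Neurod1 list had a median of 72, and the regions that also held Insm1 had a median of 89. Of the 1576 Neurod1 sites, 515 (32.7%, 30.4 to 35.0%) scored at or above the median of the list, as did 51.0% of the list. In the highest decile of the list fell 42 of them (2.66%), against 10.0% of the list, and in the lowest quartile 561 (35.6%), against 23.1%. Scores come from the same site calls that chose the regions, so these values describe the regions and were not tested.

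Foxa2 sites in the same regions were closer to the middle of their list. The Foxa2 score ranged from 19, again the lowest value in its list, to 1075, with a median of 47 and quartiles of 31 and 78.2, and the whole Foxa2 list had a median of 42. At or above that median were 880 of the 1576 sites (55.8%, 53.4 to 58.3%), against 50.6% of the list. In the highest decile were 142 (9.01%), against 10.1% of the list, and in the lowest quartile 291 (18.5%), against 22.5%. The median percentile was thus 56.3 for Foxa2 and 34.2 for Neurod1, and the Foxa2 percentile was the higher in 1067 regions (67.7%, 65.4 to 70.0%). It was also the higher in 62.8% (61.7 to 64.0%) of the regions with Insm1, where the medians were 78.8 for Foxa2 and 65.0 for Neurod1.

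The median Neurod1 score in these regions equalled that of lone Neurod1 sites, and the median Foxa2 score was above that of lone Foxa2 sites. The 3409 regions with Neurod1 alone had a median Neurod1 score of 60, the same as the regions with Foxa2. The 16974 regions with Foxa2 alone had a median Foxa2 score of 34, below the 47 found beside Neurod1. Strong sites of both factors were uncommon without Insm1. Both scores lay at or above their list medians in 334 regions (21.2%, 19.2 to 23.3%), compared with 53.9% of those with Insm1. Both were below the medians in 515 (32.7%), compared with 8.61% with Insm1. Across the 1576 regions, Spearman's rho between the Neurod1 and Foxa2 scores was 0.156, and it was 0.247 across the 6665 regions with Insm1. Both are descriptions over regions of the same pair of libraries.

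**Figure D1:**
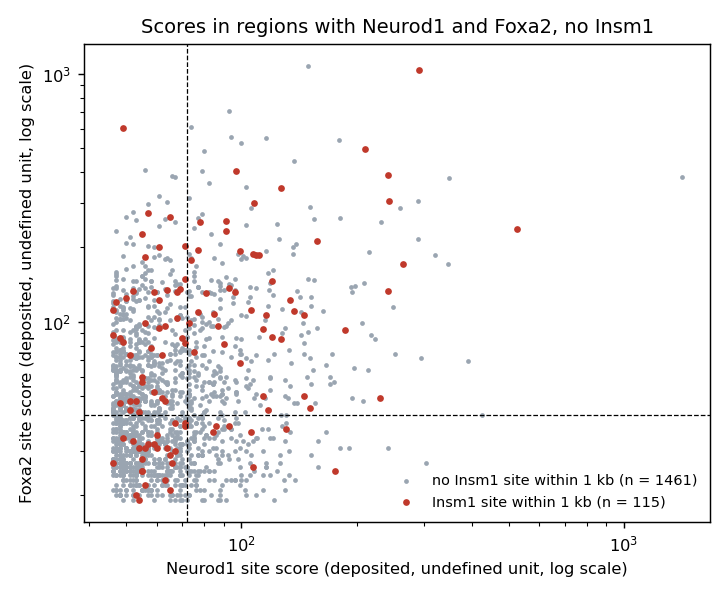
Neurod1 score (x axis, log scale) against Foxa2 score (y axis, log scale) in the 1576 regions with both factors and no Insm1 site, 1 point a region, with the median of each whole list as a dashed line. Most points lie left of the Neurod1 median of 72, and the 115 regions with an Insm1 site within 1 kb (red) are more frequent toward the upper right.

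The share of Neurod1 and Foxa2 regions that lacked Insm1 was lower at higher scores of either factor. By decile of the Neurod1 list, 39.7% lacked Insm1 in the lowest (scores 46 to 48, 211 of 532 regions, 35.6 to 43.9%) and 3.62% in the highest (scores from 175, 42 of 1161, 2.69 to 4.85%). By decile of the Foxa2 list the share went from 35.8% (scores 19 to 22, 98 of 274, 30.3 to 41.6%) to 6.9% (scores from 140, 142 of 2058, 5.88 to 8.08%). The intervals of the lowest and highest deciles do not overlap for either factor. The lowest 4 Foxa2 deciles lay between 34.5% and 37.0%, with overlapping intervals.

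**Figure D2:**
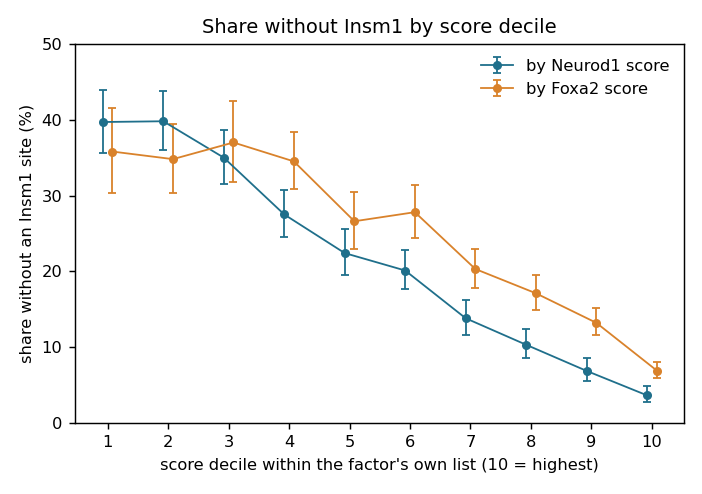
Share of regions with Neurod1 and Foxa2 sites that hold no Insm1 site (y axis, percent) by decile of the Neurod1 score and of the Foxa2 score within the factor's own list (x axis), with 95% Wilson intervals as bars. The Neurod1 line goes from 39.7% to 3.62%, and the Foxa2 line from 35.8% to 6.9%.

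Taking both scores at once gave a wider range than either alone. With both scores in the lowest quartile of their lists, 109 of 204 regions lacked Insm1 (53.4%, 46.6 to 60.1%). With both in the highest quartile, 77 of 1750 did (4.4%, 3.53 to 5.46%). Where Neurod1 was in its lowest quartile and Foxa2 in its highest, the share was 23.4% (117 of 501, 19.9 to 27.3%). The opposite corner, with strong Neurod1 and weak Foxa2, had 11.2% (18 of 160, 7.24 to 17.1%). At each Foxa2 quartile the share was lower with each step up in Neurod1 quartile.

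**Figure D3:**
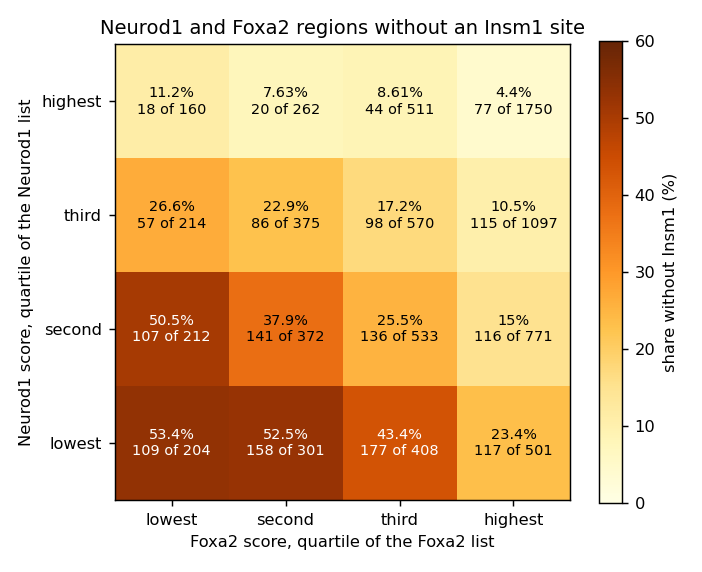
Share of Neurod1 and Foxa2 regions without an Insm1 site in the 16 cells of Foxa2 score quartile (x axis) and Neurod1 score quartile (y axis), with the counts printed in each cell and the share as colour. The share runs from 53.4% in the lowest corner to 4.4% in the highest.

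Where Insm1 was listed beside weak sites of both partners, its own score was lower than beside strong ones. In the 95 regions with Insm1 and with both partner scores in the lowest quartile, the median Insm1 score was 121, at percentile 44.0 of the Insm1 list, and 8 of the 95 Insm1 sites were in the lowest decile (8.42%, 4.33 to 15.7%). With both partners in the highest quartile the median Insm1 score was 246, at percentile 88.1, and 5 of 1673 sites were in the lowest decile (0.299%). Over all 6665 regions with Insm1 the median percentile was 70.4 and 3.11% (2.72 to 3.55%) of Insm1 sites were in the lowest decile. With Neurod1 in its lowest quartile and Foxa2 in the next, the median percentile was 37.3 and the share was 10.5% (6.46 to 16.6%). The intervals of this 10.5% and of the 8.42% both include the share of the whole Insm1 list that a decile holds. The lowest Insm1 score in the list was 76. How many regions held Insm1 signal under that score was not analysed here, so the absence of an Insm1 site means only that none was listed.

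Some of these regions lay next to an Insm1 site that did not touch them. The gap from the region's edge to the nearest Insm1 site had a median of 19625 bp and quartiles of 5344 and 57268 bp. It was at most 100 bp in 26 regions (1.65%, 1.13 to 2.41%), against 1.38% of the 21959 regions without Insm1. It was at most 1 kb in 115 regions (7.3%, 6.11 to 8.69%), against 6.19% of the regions without Insm1. Both of these background shares lie within the intervals. Regions with Neurod1 alone had an Insm1 site that near in 13.4% of cases (12.3 to 14.6%) and regions with Foxa2 alone in 4.64% (4.34 to 4.97%), so the regions with both lay between them. The intervals of the 3 classes do not overlap. Regions with all 3 factors had a further Insm1 site within 1 kb in 0.225% of cases. Sites of the Insm1 list are themselves rarely that close, with 38 gaps of at most 1 kb in the list and none under 345 bp, so the value for regions with all 3 factors is limited by the list.

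**Figure D4:**
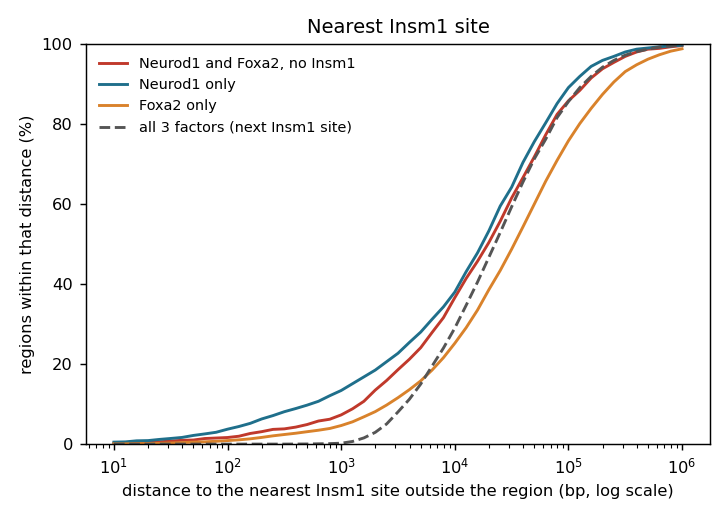
Cumulative share of regions (y axis, percent) whose nearest Insm1 site outside the region lies within the distance on the x axis (bp, log scale), for Neurod1 and Foxa2 regions without Insm1, regions with a single one of these factors, and regions with all 3. At 1 kb the lines stand at 7.3%, 13.4%, 4.64% and 0.225%, and at 100 kb at 85.8%, 89.1%, 75.8% and 85.6%.

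Nearby Insm1 sites were most frequent in the highest score quartile of either factor. In the highest quartile of the Neurod1 score 28 of 159 regions had an Insm1 site within 1 kb (17.6%, 12.5 to 24.3%), compared with 20 of 561 in the lowest (3.57%, 2.32 to 5.44%). By Foxa2 score, 66 of 425 did in the highest quartile (15.5%, 12.4 to 19.3%) and 11 of 291 in the lowest (3.78%, 2.12 to 6.64%). Of the 77 regions with both scores in the highest quartile, 21 had an Insm1 site within 1 kb (27.3%, 18.6 to 38.1%) and the median gap was 6326 bp. Of the 109 with both in the lowest quartile, 3 did (2.75%, 0.94 to 7.78%), and the median gap was 33368 bp. Lone sites showed the same order: 20.6% against 10.7% for the highest and lowest quartile of Neurod1-only regions, and 10.3% against 3.27% for Foxa2-only regions.

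Of the 115 Insm1 sites within 1 kb of these regions, 100 held no other factor, compared with 26.7% of the whole Insm1 list. The neighbouring region already holds a Neurod1 and a Foxa2 site, and sites within these lists are at least 403 and 405 bp apart. Gaps of at most 1 kb numbered only 65 among the 14607 Neurod1 sites and 179 among the 28379 Foxa2 sites. The Insm1 list as a whole is not under this limit, so the 26.7% is not a like comparison. How far the spacing sets the count of 100 was not tested. The median Insm1 score of the 115 sites was 145, at percentile 59.6 of the Insm1 list, and 71 of 115 (61.7%) scored at or above the median of that list. The median distance from the Insm1 summit was 500 bp to the Neurod1 summit and 482 bp to the Foxa2 summit. Neurod1 had the nearer summit beside 51 of these sites and Foxa2 beside 63, with 1 tie.

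The limit between having and lacking an Insm1 site is a matter of a few bp for a handful of regions. Just inside the rule were regions on chromosome 1 (77007267 to 77007496) and chromosome 7 (59237940 to 59238249), each 2 bp from an Insm1 site, and a region on chromosome 19 (57016835 to 57016961), 5 bp from another. The Insm1 sites beside the first and the second of these ranked 319 and 685 of 17453 by score, and that beside the third ranked 11836. Just outside were regions with all 3 factors on chromosome 5 (26498485 to 26498861), chromosome 6 (51631842 to 51632212) and chromosome 4 (148282352 to 148282687), whose Insm1 sites overlapped the other sites by 12, 18 and 28 bp and ranked 93, 1340 and 12007. Few regions lay this near to the limit. An Insm1 site lay at most 25 bp away in 9 of the 1576 regions, and the Insm1 site overlapped the others by at most 25 bp in 2 of the 6665 regions with Insm1, where the median overlap was 178 bp.

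At the other end, 1352 regions (85.8%, 84.0 to 87.4%) had an Insm1 site within 100 kb, against 78.6% of the regions without Insm1. The remaining 224 regions lay over 100 kb from any Insm1 site, and 6 (0.381%) lay over 1 Mb from one. Gaps over 1 Mb were found for 193 of 16974 Foxa2-only regions (1.14%) and 6 of 3409 Neurod1-only regions (0.176%). The farthest of the 1576, named after its value was seen, was on the X chromosome at 62134960 to 62135158. It lay 4415405 bp from the nearest Insm1 site, with a Neurod1 score of 49 and a Foxa2 score of 86.

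The distance between the Neurod1 and Foxa2 summits was close to that in regions with Insm1, while the sites overlapped over fewer bp. The summits lay a median of 41 bp apart (quartiles 17 and 78 bp, at most 384 bp), and also 41 bp apart (18 and 78 bp) in regions with Insm1. Summits lay within 25 bp in 573 regions (36.4%, 34.0 to 38.8%) and in 34.3% (33.1 to 35.4%) of regions with Insm1, or 32.5% of these when weighted to the same mix of score quartiles. They lay over 100 bp apart in 14.5% (12.8 to 16.3%) without and 14.2% (13.4 to 15.1%) with Insm1. The median overlap of the sites was 119 bp, compared with 145 bp with Insm1. The Foxa2 summit lay inside the Neurod1 site in 74.6% of regions (72.4 to 76.7%), compared with 81.4% (80.4 to 82.3%) with Insm1. Each summit lay inside the other site in 69.5% (67.2 to 71.7%), compared with 77.9% (76.9 to 78.9%). The shorter site lay wholly inside the longer in 829 regions (52.6%, 50.1 to 55.1%) and in 49.6% (48.4 to 50.8%) of those with Insm1. Overlap of narrow sites requires near summits, and the rule asks for it, so the closeness itself is no result. In regions with Insm1 the Insm1 site can join the others, so their direct overlap is not required. It was present in 98.9% of these, and in every region without Insm1.

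**Figure D5:**
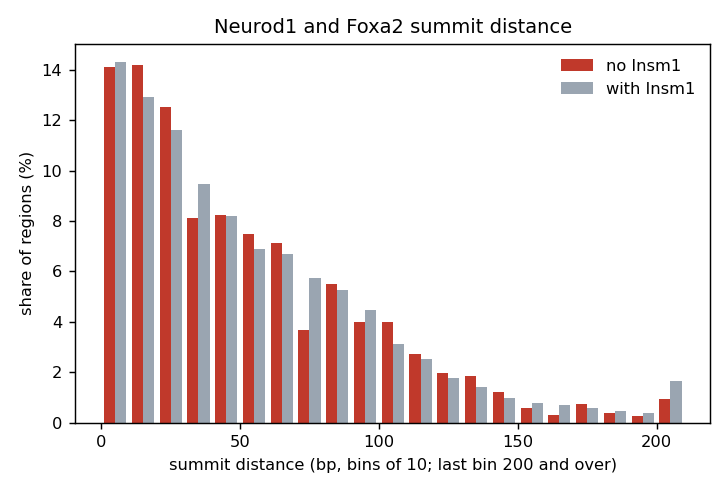
Distance between the Neurod1 and Foxa2 summits (x axis, bp, in bins of 10 bp with the last bin for 200 bp and over) as a share of regions (y axis, percent), for regions without Insm1 (red) and with Insm1 (grey). Both sets of bars are highest at small distances, and the first bin holds 14.1% of regions without and 14.3% of regions with Insm1.

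The sites themselves were narrower than where Insm1 was present, but near the medians of their lists. The median width was 142 bp for Neurod1 and 199 bp for Foxa2, compared with 164 and 212 bp in regions with Insm1. The list medians were 147 and 199 bp, and lone sites had medians of 114 bp for Neurod1 and 191 bp for Foxa2. Weighting the regions with Insm1 to the same mix of score quartiles changed their mean widths from 163 to 152 bp for Neurod1 and from 219 to 216 bp for Foxa2. The means without Insm1, 139 and 204 bp, were still lower at this matched mix of scores, by less than before weighting. A Neurod1 site of at most 60 bp was present in 33 of the 1576 regions (2.09%) and a Foxa2 site that narrow in 12 (0.761%), and 9 regions had both. Regions with Insm1 had such a Neurod1 site in 0.66% and such a Foxa2 site in 0.42%. The whole lists held 424 sites that narrow among 14607 for Neurod1 and 271 among 28379 for Foxa2. The shares without Insm1 were thus above those with Insm1 and not above those of the lists.

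Other bound regions lay within 10 kb of most of these regions. Another region lay within 10 kb of 841 of them (53.4%, 50.9 to 55.8%), against 47.8% of all regions and 50.8% (49.6 to 52.0%) of those with all 3 factors, or 48.1% of the latter when weighted to the same mix of score quartiles. The share was 59.1% (57.4 to 60.7%) for Neurod1-only and 43.8% (43.0 to 44.5%) for Foxa2-only regions. An Insm1 site lay within 10 kb of 577 (36.6%, 34.3 to 39.0%), against 28.0% of the regions without Insm1. The share was 38.0% (36.4 to 39.7%) for Neurod1-only and 25.2% (24.5 to 25.9%) for Foxa2-only regions. With all 3 factors a further Insm1 site lay that near in 29.0% (28.0 to 30.1%), and in 27.7% after the same weighting. Within 1 kb the shares were 7.3% without Insm1 and 0.225% with all 3 factors, the latter limited by the spacing of the Insm1 list. That limit enters the values at 10 kb too, and the weighting does not remove it. A region with all 3 factors lay within 10 kb of 274 (17.4%, 15.6 to 19.3%), against 11.9% of all regions. Regions with all 3 factors had another of their class that near in 15.5% (14.6 to 16.4%), and these intervals overlap. The share was 12.9% (11.9 to 14.1%) for Neurod1-only and 11.0% (10.5 to 11.4%) for Foxa2-only regions. A region with Insm1 alone was that near to 195 (12.4%, 10.8 to 14.1%), against 7.75% of all regions. The share was 16.1% (14.9 to 17.4%) for Neurod1-only regions, 7.02% (6.64 to 7.41%) for Foxa2-only regions and 6.3% (5.74 to 6.91%) for regions with all 3 factors. The spacing of Insm1 sites also limits this last value, and that of regions with all 3 factors for neighbours of their own class. Another region with Neurod1 and Foxa2 and no Insm1 was within 10 kb of 85 (5.39%, 4.38 to 6.62%), against 3.32% of all regions. Regions with all 3 factors had 1 that near in 4.44% (3.97 to 4.96%).

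The regions were spread over all autosomes. They made up between 3.12% of the bound regions on chromosome 14 (56 of 1795) and 5.12% on chromosome 8 (99 of 1935). Among Neurod1 and Foxa2 regions the share without Insm1 ran from 15.6% (12.2 to 19.7%) on chromosome 14 to 22.4% (19.1 to 26.1%) on chromosome 4, and these intervals overlap. On the X chromosome, 31 of 105 such regions lacked Insm1 (29.5%, 21.6 to 38.8%), against 1545 of 8136 on the autosomes (19.0%, 18.2 to 19.9%). The median Neurod1 percentile of these regions was 56.1 on X and 58.9 on the autosomes. Autosomal regions weighted to the Neurod1 and Foxa2 scores of the X regions gave 20.0%. Insm1 sites as a whole were few on X, at 0.974% of the Insm1 list against 1.23% of the Neurod1 and 2.27% of the Foxa2 list, and the part of this in the share above was not tested. The regions on X were 1.97% (1.39 to 2.78%) of the 1576, against 1.88% of all regions.

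The strongest regions, ranked by the lower of the Neurod1 and Foxa2 percentiles, are given by position on mm9, since the gene table at hand is of another build and was not used to place genes. The first lay on chromosome 19 at 61275633 to 61275708, with Neurod1 rank 3 of 14607 (score 1420) and Foxa2 rank 354 of 28379 (score 384). Its Neurod1 and Foxa2 sites were only 68 and 70 bp wide, compared with list medians of 147 and 199 bp, and its nearest Insm1 site was 176635 bp away. The second, on chromosome 2 at 181495973 to 181496175, had Neurod1 rank 232 and Foxa2 rank 367, with summits 6 bp apart. Its nearest Insm1 site, 2384 bp away, ranked 1994 and was part of a region with all 3 factors.

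The third, on chromosome 12 at 39755864 to 39756091, had Neurod1 rank 405 and Foxa2 rank 28, and lay 126 bp from an Insm1 site of rank 624. It also had the next to highest Foxa2 score of the 1576 regions, at 1033. The next were on chromosome 5 from 78506370 to 78506691 (Neurod1 rank 410, Foxa2 rank 611) and on chromosome 12 from 117729190 to 117729446 (544 and 721). Their nearest Insm1 sites lay 1827 and 6808 bp away, and both of these were in regions with all 3 factors.

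The sixth, on chromosome 5 at 49651368 to 49651579, had Neurod1 rank 55 and Foxa2 rank 1085 and stood 495 bp from an Insm1 site of rank 72. The seventh, on chromosome 13 at 97414509 to 97414742 (Neurod1 rank 647, Foxa2 rank 611), was 132 bp from an Insm1 site of rank 1625. The eighth, on chromosome 17 at 83612893 to 83613079 (662 and 343), was 546 bp from one of rank 530. The remaining regions were on chromosome 6 from 66878703 to 66878993 (Neurod1 rank 410, Foxa2 rank 1321) and on chromosome 4 from 119207016 to 119207216 (730 and 973), 11327 and 4868 bp from an Insm1 site. Of these 10 regions, 4 thus lay within 1 kb of an Insm1 site. Among all 77 regions with both scores in the highest quartile, which include these, 21 did (27.3%, 18.6 to 38.1%).

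The 3 highest scores of each factor were found with sites of the other at percentiles from 50.6 to 98.8 of its list. After the regions on chromosome 19 and on chromosome 5 at 49651368, the highest Neurod1 score was 425 on chromosome 11 at 100379562 to 100379783 (rank 115), where the Foxa2 site scored 42, at the median of its list. The highest Foxa2 score was 1075 (rank 24) on chromosome 15 at 93219614 to 93219903, where the Neurod1 site ranked 1982 and the summits were 1 bp apart, and the nearest Insm1 site was 8801 bp away. The region on chromosome 5 at 27986576 to 27986902 had a Foxa2 score of 708 (rank 70) and a Neurod1 score of 93 (rank 4751).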

How the data were processed

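The analysis used 1 deposited site list each for Insm1, Neurod1 and Foxa2. The submitters' processing notes name MACS 1.4, Bowtie 0.12.7, CASAVA and the mm9 build. Settings, site threshold, control and pooling of repeats are not stated there. The lists have no header, and the authors' last column was read as a site score of unknown definition and the inner position as the summit. Coordinates are printed as deposited. Whether they count from 0 or 1 is not given. Ends that only touch were not merged, and 5 pairs of regions touch.

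Sites were merged, classed and measured with Python 3.11.15, numpy 2.4.6, pandas 2.3.3, scipy 1.17.1 and matplotlib 3.10.9, and merging was tested on simulated data. With 1 list a factor no test was made. The regions and lists were chosen with earlier results of these data known. Regions are named as the 10 with the highest lower percentile (sites over 60 bp), the 3 highest for each factor, and the 3 nearest to the rule's limit on each side. A planned choice of the 3 with the most sites named none, as all hold equally many. Sites lie past the last gene of the GRCm38 table on 10 of 20 chromosomes, so planned comparisons with genes, transcription starts and motifs were not run and no sequence is printed.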

Additional observations from a re-analysis of the deposited data

How the results depend on the processing

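Over 7 results and 7 settings, 34 of 49 values stayed within 1.5 times the main count or within the 95% interval of the main value (exact binomial ranks for medians). The other 15 follow. With only the sites above the median score of their list there were 851 regions, of which 317 were among the 1576, since regions whose Insm1 site scored low then count as lacking it. The share without Insm1 was 22.2%, the median percentiles were 68.6 (Neurod1) and 79.5 (Foxa2), 23.9% lay within 10 kb of an Insm1 site and 3.17% were on X. Percentiles are of the full lists, so dropping the lower-scoring sites raises them by construction. Lists of equal length gave 1143 regions (887 of the 1576), median percentiles of 37.1 and 74.0, and 32.7% within 10 kb of an Insm1 site. Here the Foxa2 and Insm1 lists were cut to their highest scores, down to the length of the Neurod1 list. The cut raises the Foxa2 percentile by construction. Regions whose Insm1 site scored low then count as lacking it, and fewer Insm1 sites remain to lie within 10 kb. Pairing by summits within 100 bp gave a share of 20.5%, a median summit distance of 31 bp, which the window limits, and 43.9% within 10 kb. Under this pairing a region can overlap an Insm1 site whose summit is farther off, and it then counts as within 10 kb. Widening sites by 500 bp gave 20.1%, 59 bp and 30.8%, and kept 1444 of the 1576. Widened sites join any Insm1 site closer than 1 kb, so regions that near to one leave the class. This by itself lowers the share within 10 kb. An overlap of at least 50% of the shorter site, leaving out sites of at most 60 bp and merging touching sites, the last chosen after seeing the data, moved none of the 7 results outside these limits. Depth limits are unknown, since the lists give no read counts. Settings for motifs and transcription starts were not run, since no mm9 sequence or annotation was used.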
